A study of Mus musculus with 28 samples.

Results

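The expression of 10 genes of the PIWI-interacting RNA (piRNA) pathway was followed through mouse spermatogenesis: *Piwil1*, *Piwil2*, *Piwil4*, *Mael*, *Tdrd1*, *Tdrd5*, *Tdrd6*, *Tdrd9*, *Ddx4* and *Asz1*. They were chosen by name from the 37206 genes of the deposited table, where 26 transcripts carry them, and each gene's value is the sum of the RPKM values (read counts scaled by transcript length and by library depth) of its transcripts. The table holds polyadenylated RNA of 28 libraries from 13 mice labelled C57BL/6, wildtype (WT) or null for *Csmd1* (KO), which encodes a large membrane protein that regulates complement. The null allele is constitutive: a lacZ/neomycin cassette replaces the first exon and part of the first intron. Sorted germ cells gave 20 libraries from 8 mice: spermatogonia (2 WT, 2 KO), primary spermatocytes (2 WT, 4 KO), secondary spermatocytes (2 WT, 3 KO) and spermatids (3 WT, 2 KO). The remaining libraries were 7 whole testes (2 WT, 5 KO) and the whole ovary of 1 WT female, and each library is named here by its mouse. WT and null mice were siblings from 1 null line. The study describes its colony as on a mixed background that included C57BL/6, and took littermate tissue comparisons from this original colony. The labels and the study thus differ on the background. Fractions were sorted by Hoechst fluorescence, and the labels give no age. The study's methods describe sexually mature males for sorting, and the study also sequenced testes of immature males. *Csmd1* cannot check the genotype labels, because its full-length transcript ranged from 0.008 to 0.517 RPKM in the sorted WT libraries and from 0 to 2.004 RPKM in the sorted KO libraries. The study reports that null testes had most *Csmd1* exons reduced and the last ones raised, and a full-length value covers both.

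Estimated depth was 23.8 to 61.7 M mapped reads in 27 libraries and unknown in the primary spermatocytes of KO mouse 613, whose isoforms were also quantified differently. The labelled stages were checked against marker genes. The 6 spermatogonial markers summed to 75.2 to 442 RPKM in spermatogonia and to 3.86 to 72.4 RPKM in primary spermatocytes, without overlap. The 6 spermatid markers summed to 7290 to 7509 RPKM in the spermatids of WT mice 178 and 351 and KO mouse 544, but to 259 RPKM in those of WT mouse 648 and 248.7 RPKM in those of KO mouse 286. *Prm1*, the protamine gene of late spermatids, was at 0.58 and 2.14 RPKM in the spermatids of mice 648 and 286. It was also at 0.44 to 1.16 RPKM in the whole testes of mice 648, 286, 269 and 308, against 603 to 1922 RPKM in those of mice 178, 214 and 273. One spermatogonia library, that of KO mouse 544, carried 1402 RPKM of *Prm1*. Its 6 spermatid markers summed to 10790 RPKM, above every spermatid library. Its spermatogonial markers summed to 75.2 RPKM, the lowest of the spermatogonia and close to the 72.4 RPKM of the KO 614 primary spermatocytes. Differences of the called members without these libraries stand beside them, or with the fits that leave out libraries, where the value or the call moved.

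piRNAs are small RNAs of the germline that guide PIWI proteins to transposon transcripts and, in meiosis, to other targets. In the mouse testis they come in waves: prepachytene piRNAs bind PIWIL2 (MILI) and PIWIL4 (MIWI2) in fetal and neonatal germ cells, and pachytene piRNAs, made from long precursors under the transcription factor MYBL1 (A-MYB), bind PIWIL1 (MIWI) and PIWIL2 from the pachytene spermatocyte onwards. Tudor-domain proteins, the helicase DDX4 (mouse vasa homolog) and the mitochondria-linked protein ASZ1 (GASZ) assemble the cytoplasmic granules in which piRNAs are processed, and MAEL and TDRD6 belong to the granules of spermatocytes and spermatids. By these textbook roles *Piwil1*, *Tdrd5*, *Tdrd6* and *Mael* were grouped as pachytene members and the other 6 as prepachytene members. The split is a convention, since most of these proteins act in both phases. It was also set with earlier results of these data known, so differences between the groups are a description.

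Primary spermatocytes were set against spermatogonia as the first step of the labelled series. The 6 spermatocyte markers summed to a median of 957 RPKM in spermatogonia and 716 RPKM in primary spermatocytes. This step is therefore not a comparison of cells before and after entry into meiosis. All 4 pachytene members rose, *Piwil4* fell, and the other 5 did not pass the test. *Piwil1*, which encodes the PIWI protein of pachytene spermatocytes and round spermatids, lies on chromosome 5 (128736174 to 128755474, plus strand, GRCm38) and has 1 transcript of 22 exons in the table. In spermatogonia it measured 22.2 RPKM (WT 178), 5.41 (WT 648), 28.4 (KO 286) and 48.9 (KO 544). In primary spermatocytes it measured 138 and 121 RPKM in WT mice 178 and 648, and 437, 292, 172 and 124 RPKM in KO mice 544, 550, 613 and 614. Every primary spermatocyte library was above every spermatogonia library, which held for 2.86% of the 19049 genes tested, and the level was higher in 3 of 3 mice with both fractions. The difference was 3.08 ± 0.56 (SE) on the log2(RPKM + 0.1) scale, or 8.44-fold (adjusted p = 0.000995, limma across all genes). *Tdrd6*, a multi-tudor protein of the chromatoid body of spermatids, rose as well. Its sum was 17.7 (WT 178), 9.80 (WT 648), 37.4 (KO 286) and 223 RPKM (KO 544) in spermatogonia. In primary spermatocytes the WT libraries of mice 178 and 648 held 400 and 217 RPKM and the KO libraries of mice 544, 550, 613 and 614 held 146, 325, 186 and 285 RPKM. The 4 spermatogonia libraries thus differed widely, and the highest, KO 544, is the one with 1402 RPKM of *Prm1*. The difference was 2.88 ± 0.47 (7.37-fold, adjusted p = 0.000589), and within mice it was positive in 2 of 3, being -0.61 in mouse 544. Without the KO 544 spermatogonia the *Tdrd6* difference was 3.53 (11.5-fold, adjusted p = 0.000179) and without the KO 286 spermatogonia 2.24 (4.72-fold, adjusted p = 0.00352), and WT libraries alone gave 4.47 (22.2-fold, adjusted p = 0.00485).

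*Tdrd5*, whose protein is needed for piRNA processing in spermatocytes, was even among the spermatogonia libraries, at 41.7 (WT 178), 31.3 (WT 648), 43.0 (KO 286) and 26.9 RPKM (KO 544). Its primary spermatocyte libraries held 115 and 153 RPKM in WT mice 178 and 648 and 230, 154, 40.4 and 64.0 RPKM in KO mice 544, 550, 613 and 614. Only that of mouse 613 lay inside the range of spermatogonia. The difference was 1.70 ± 0.55 (3.25-fold, adjusted p = 0.0257) and positive in 3 of 3 mice. *Mael*, which encodes a nuage protein with an HMG box, measured 99.5 (WT 178), 75.1 (WT 648), 119 (KO 286) and 305 RPKM (KO 544) in spermatogonia. It reached 462 and 380 RPKM in the primary spermatocytes of WT mice 178 and 648, and 250, 295, 237 and 180 RPKM in those of KO mice 544, 550, 613 and 614. The KO 544 spermatogonia library again stood with those of primary spermatocytes. The *Mael* difference was 1.29 ± 0.37 (2.45-fold, adjusted p = 0.0144), higher in 2 of 3 mice. It was 1.63 without the KO 544 spermatogonia (adjusted p = 0.00363) and 0.92 without mice 648 and 286 (adjusted p = 0.246). *Piwil4*, the nuclear PIWI protein of fetal prospermatogonia, went the other way. It was at 1.59 (WT 178), 7.71 (WT 648), 3.92 (KO 286) and 0.65 RPKM (KO 544) in spermatogonia, and at 0.04 and 0.09 RPKM in the primary spermatocytes of the WT mice 178 and 648. In KO primary spermatocytes it was listed at 0.05 (544), 0 (550), 0.61 (613) and 1.06 RPKM (614), so the last library overlapped with spermatogonia. It fell by 3.43 ± 0.82 (10.8-fold, adjusted p = 0.00474), and was lower in 3 of 3 mice. The fall was 2.83 on the log2 scale without the KO 286 spermatogonia (adjusted p = 0.0345) and 4.04 without those of KO 544 (adjusted p = 0.00279).

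**Figure D1:**
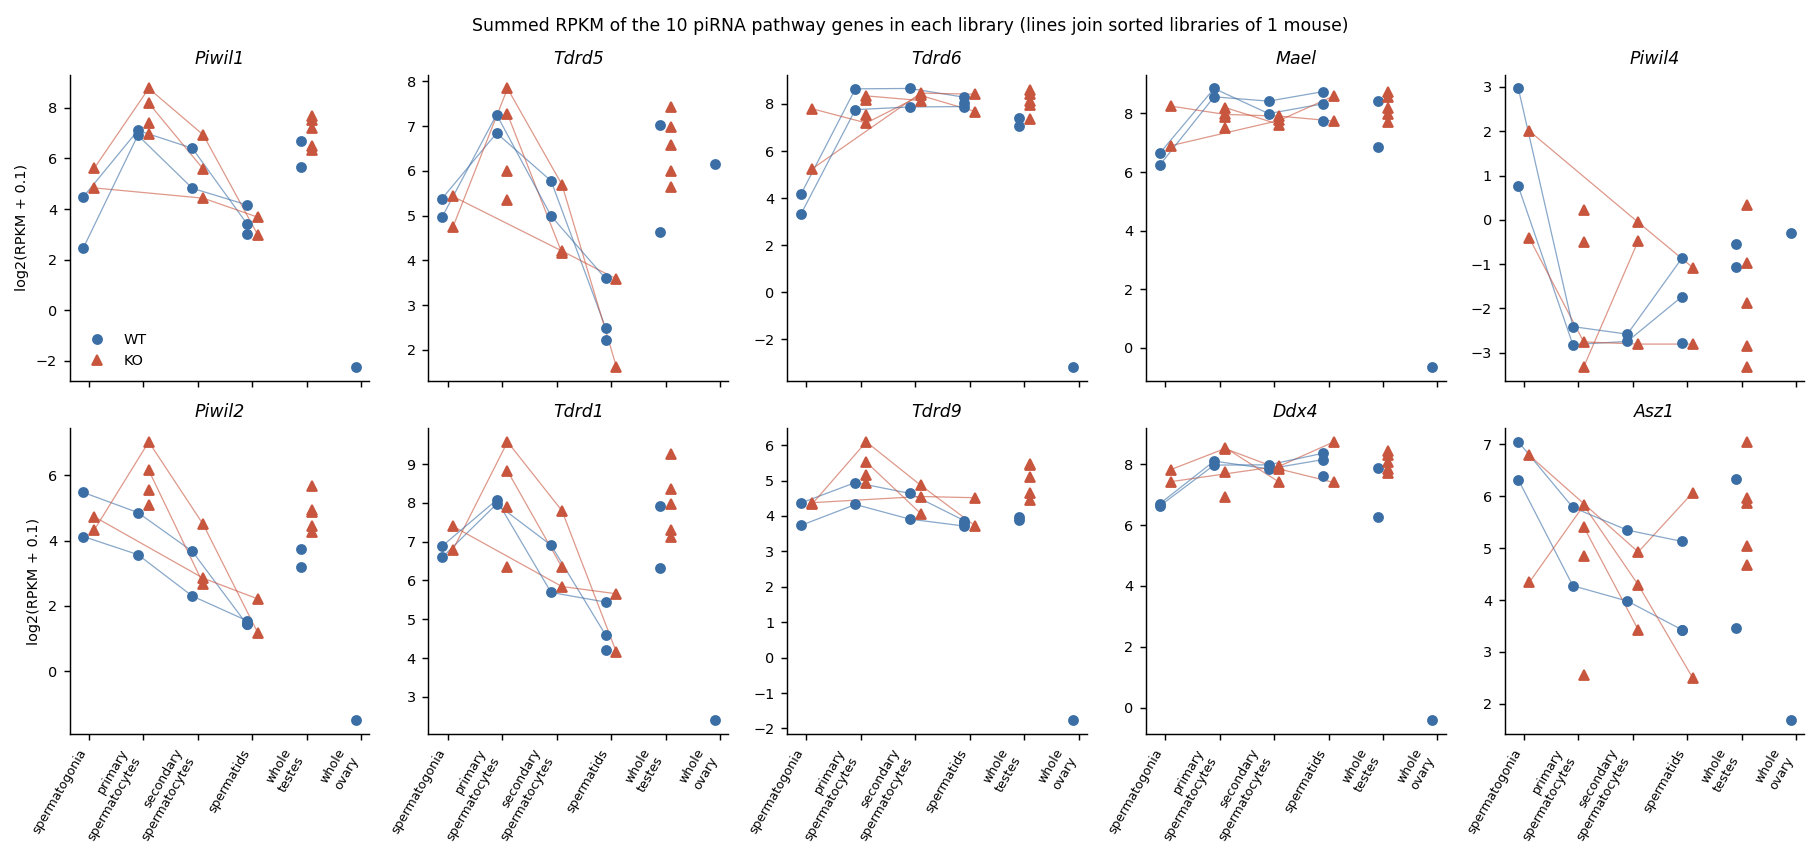
Summed RPKM of each of the 10 genes in each of the 28 libraries, as log2(RPKM + 0.1), by fraction (circles, WT; triangles, KO); lines join the sorted libraries of 1 mouse and each panel has its own vertical axis. *Piwil1* and *Tdrd5* peak in primary spermatocytes and fall to spermatids, *Tdrd6*, *Mael* and *Ddx4* are at high values from primary spermatocytes to spermatids, *Piwil4* has its highest values in spermatogonia, and the ovary is lowest in 8 of 10 panels.

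The 4 members called higher compare with 9.53% of all genes tested, and the 1 called lower with 22.0%, which makes 31.5% in either direction. The median difference of the 10 members was 1.01, beside -0.27 over all genes. The pachytene members had a median of 2.29 and the prepachytene members 0.63. *Tdrd1*, a tudor scaffold that binds PIWIL2, differed by 1.17 ± 0.59 (adjusted p = 0.14), *Tdrd9*, an RNA helicase partnered with PIWIL4, by 0.83 ± 0.35 (adjusted p = 0.085) and *Ddx4* by 0.84 ± 0.40 (adjusted p = 0.12). Each of these was higher in 3 of 3 mice. *Piwil2* differed by 0.42 ± 0.51 (adjusted p = 0.59) and *Asz1* by -1.28 ± 0.78 (adjusted p = 0.24), with their mice going both ways. With the mouse as a block 8 members were called, since *Tdrd1* (adjusted p = 0.045), *Tdrd9* (adjusted p = 0.015) and *Ddx4* (adjusted p = 0.034) then rose too. In that fit 13.9% of genes were called higher and 27.1% lower. The 9 WT libraries alone called the same 5 members in the same directions, at adjusted p = 0.00485 to 0.0443. The share of all genes called in the WT fit is not given here, so that count has no background beside it. Quantile normalization moved the median of all genes from -0.27 to 0.08. Among the called genes alone, those called higher went from 30.2% to 51.9%. In that fit 3103 of 18962 genes tested were called higher and 2877 lower. Quantile normalization kept these 5 calls and added *Tdrd9* (1.09, adjusted p = 0.014).

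The rise of *Piwil1* and *Tdrd6* and the fall of *Piwil4* held when any 1 of the 20 libraries was left out (highest adjusted p = 0.0105, 0.00652 and 0.039). *Tdrd5* lost its call without the spermatogonia of WT 648 or KO 544 or the primary spermatocytes of WT 178 or WT 648 (adjusted p = 0.056 to 0.094), and *Mael* without the spermatogonia of WT 648 or KO 286 or the primary spermatocytes of WT 178 (adjusted p = 0.057 to 0.081). Without all libraries of mouse 648 the calls were *Piwil1* (2.62, adjusted p = 0.0289) and *Tdrd6* (2.89, adjusted p = 0.0186), and 2208 genes were called in all, against 6007. *Tdrd5* (1.49, adjusted p = 0.202), *Mael* (1.26, adjusted p = 0.12) and *Piwil4* (-2.98, adjusted p = 0.0947) kept their sign there and did not pass. Without mice 648 and 286 the differences were 2.425 for *Piwil1* (5.37-fold), 2.25 for *Tdrd6* (4.75-fold) and 1.66 for *Tdrd5*. The fall of *Piwil4* shrank to -2.375 (5.19-fold) in that fit, which leaves 1 library in the spermatogonia of each genotype. *Tdrd1* and *Ddx4* gained a call without the library of mouse 613 (adjusted p = 0.030 and 0.029). Markers of somatic cells moved with this comparison. The 6 Sertoli cell genes summed to 63.0 to 125 RPKM in spermatogonia and 4.003 to 27.4 RPKM in primary spermatocytes, and the 6 peritubular and stromal genes to 12.5 to 193 and 1.36 to 32.6 RPKM. The 6 Leydig cell genes summed to 10.7 to 322 and 3.29 to 82.4 RPKM, and the 6 macrophage genes to 9.57 to 74.6 and 1.74 to 7.73 RPKM. *Rhox5* of the Sertoli list was at 0 in 27 of the 28 libraries. The 6 spermatocyte genes did not separate the fractions, at 305 to 1947 RPKM in spermatogonia and 247 to 2245 RPKM in primary spermatocytes. The part of these cells in the differences was not tested, and in bulk libraries fewer cells of a type and less RNA per cell cannot be told apart.

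The promoter windows of members that moved together in this comparison are shown because MYBL1 binds a short MYB-type motif in promoters of pachytene piRNA precursors and piRNA pathway genes. RefSeq windows (GRCm38.p6) run from 250 bases before to 50 bases after each start and were found for 8 of the 10 genes, 11 windows in all. The motif was searched as CAACNG or TAACNG on both strands, counting overlapping matches, and matches are in capitals. Of all 32851 windows 49.7% hold a match. The *Piwil1* window (chr5:128735996-128736295, plus strand) holds 3 matches, a number reached by 4.73% of windows, the *Tdrd5* window (chr1:156303299-156303598, minus strand) 2, reached by 17.2%, and the *Mael* window (chr1:166238695-166238994, minus strand) 1. The window of the *Piwil4* start furthest upstream (chr9:14740623-14740922, minus strand) is shown beside them as that of the member that fell, and holds none.
*Piwil1*: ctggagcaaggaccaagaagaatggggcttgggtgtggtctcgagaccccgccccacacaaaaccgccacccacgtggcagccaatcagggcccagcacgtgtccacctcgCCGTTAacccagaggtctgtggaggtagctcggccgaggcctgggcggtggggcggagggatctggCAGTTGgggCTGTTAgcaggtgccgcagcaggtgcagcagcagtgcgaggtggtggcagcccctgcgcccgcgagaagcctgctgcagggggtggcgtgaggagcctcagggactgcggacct
*Tdrd5*: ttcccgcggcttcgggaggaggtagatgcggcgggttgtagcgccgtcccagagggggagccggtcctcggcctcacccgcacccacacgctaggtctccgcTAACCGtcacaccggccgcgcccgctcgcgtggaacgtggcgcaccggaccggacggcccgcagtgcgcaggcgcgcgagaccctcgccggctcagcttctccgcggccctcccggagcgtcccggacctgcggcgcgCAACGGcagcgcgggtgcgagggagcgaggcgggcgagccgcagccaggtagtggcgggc
*Mael*: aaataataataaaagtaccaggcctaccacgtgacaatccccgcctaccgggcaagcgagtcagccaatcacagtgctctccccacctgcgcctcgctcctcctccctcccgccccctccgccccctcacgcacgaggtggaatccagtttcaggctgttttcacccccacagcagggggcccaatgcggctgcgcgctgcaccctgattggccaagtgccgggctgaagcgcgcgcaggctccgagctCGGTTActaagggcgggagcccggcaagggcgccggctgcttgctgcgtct
*Piwil4*: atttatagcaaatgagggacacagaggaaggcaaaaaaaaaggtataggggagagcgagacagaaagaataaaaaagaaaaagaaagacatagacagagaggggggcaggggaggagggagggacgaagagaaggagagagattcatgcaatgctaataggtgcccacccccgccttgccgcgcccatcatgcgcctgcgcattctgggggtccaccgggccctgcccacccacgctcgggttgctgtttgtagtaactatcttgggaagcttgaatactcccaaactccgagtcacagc
Among the prepachytene members, 1 of the 8 windows of 5 genes held a match, that of the other *Piwil4* start, and those of *Tdrd1*, *Tdrd9*, *Ddx4* and *Asz1* held none. With 3 pachytene windows and a share of 49.7% in all windows, these counts are a description of the letters.

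**Figure D2:**
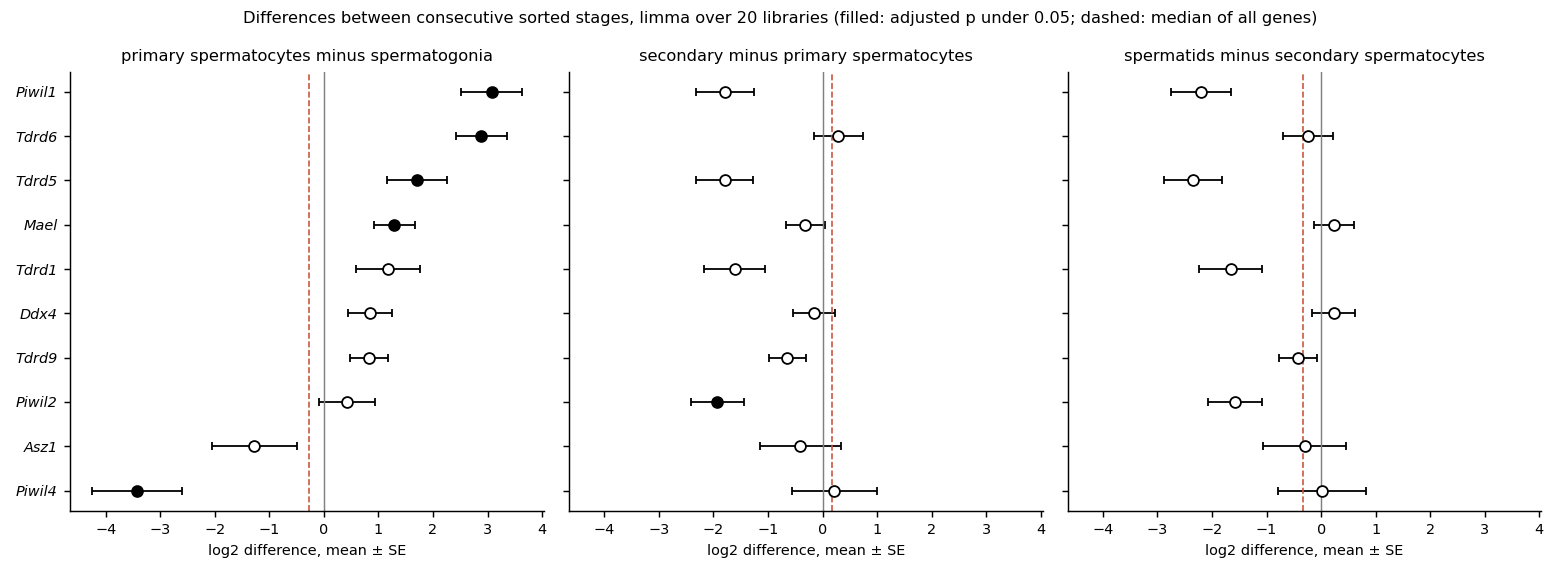
Log2 differences of the 10 genes between consecutive sorted stages (mean of the WT and KO differences, bars ± SE, limma over 20 libraries); filled points have an adjusted p under 0.05 and the dashed line is the median of all genes. In the first panel 5 points are filled, in the second *Piwil2* alone and none in the third, where *Piwil1*, *Piwil2*, *Tdrd1* and *Tdrd5* lie furthest to the left.

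From primary to secondary spermatocytes, the cells between the meiotic divisions, 1 member passed the test. *Piwil2*, which encodes the PIWI protein common to both piRNA waves, measured 28.9 and 11.8 RPKM in the primary spermatocytes of WT mice 178 and 648 and 130, 71.1, 47.1 and 34.1 RPKM in those of KO mice 544, 550, 613 and 614. In secondary spermatocytes it measured 12.6 and 4.82 RPKM in WT mice 178 and 648 and 7.09, 22.4 and 6.29 RPKM in KO mice 286, 544 and 550. The primary spermatocytes of WT 648 were low, so the ranges overlapped, as they did for most genes (5.08% had every secondary library higher and 1.51% every one lower). Within mice the level was lower in 4 of 4. It fell by 1.93 ± 0.49 (3.80-fold, adjusted p = 0.042), a call shared by 0.194% of genes in that direction, and 2.85% of genes were called higher, which makes 3.04% in either direction. The call was lost when any 1 of 10 libraries was left out, namely the primary spermatocytes of WT 178, WT 648, KO 544 or KO 550, the secondary spermatocytes of WT 178, WT 648, KO 286 or KO 550, or the spermatids of WT 178 or WT 351 (adjusted p = 0.056 to 0.24). Without mouse 648 the difference was -1.91 (adjusted p = 0.211) and without mice 648 and 286 it was -1.78 (adjusted p = 0.158). Markers of other cells moved the other way in this step: Sertoli genes summed to a median of 5.77 RPKM in primary and 48.9 RPKM in secondary spermatocytes, Leydig genes to 6.49 and 39.6 RPKM, macrophage genes to 2.62 and 11.8 RPKM and spermatid genes to 230 and 909 RPKM. The 6 spermatocyte genes went the same way as *Piwil2*, from a median of 716 RPKM in primary to 334 RPKM in secondary spermatocytes, with overlapping libraries. The part of all these markers in the difference was not tested.

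The differences of *Piwil1*, *Tdrd5* and *Tdrd1* did not pass the test. *Piwil1* was at 84.6 and 28.2 RPKM in the secondary spermatocytes of WT mice 178 and 648 and at 21.4, 122 and 47.8 RPKM in those of KO mice 286, 544 and 550. Its difference was -1.79 ± 0.53 (adjusted p = 0.069). *Tdrd5* was at 54.8 and 31.8 RPKM in WT and 18.4, 51.7 and 17.8 RPKM in KO secondary spermatocytes, in the same order of mice, with a difference of -1.80 ± 0.52 (adjusted p = 0.066). *Tdrd1* had 251 and 270 RPKM in the primary spermatocytes of WT mice 178 and 648 and 763, 453, 80.9 and 238 RPKM in those of KO mice 544, 550, 613 and 614. Its secondary spermatocytes held 120 and 51.6 RPKM in WT and 57.3, 223 and 81.0 RPKM in KO, a difference of -1.61 ± 0.56 (adjusted p = 0.11). Each of these 3 genes was lower in 4 of 4 mice. In the fit with the mouse as a block *Piwil1*, *Piwil2*, *Tdrd1* and *Tdrd5* were called lower (adjusted p = 0.012, 0.0041, 0.019 and 0.0098), where 4.86% of genes were called lower and 15.0% higher. *Tdrd6*, *Mael* and *Ddx4* differed by 0.29, -0.31 and -0.16, each less than its SE in size, and *Tdrd9*, *Asz1* and *Piwil4* by -0.64 ± 0.34, -0.41 ± 0.74 and 0.21 ± 0.78. The members' median was -0.52, beside 0.18 over all genes.

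The last step, from secondary spermatocytes to spermatids, called no member in limma, where 0.535% of genes were called lower and 0.00525% higher, and 4 members had an unadjusted p under 0.05, as had 17.6% of all genes. These were again *Piwil1*, *Piwil2*, *Tdrd1* and *Tdrd5*. Every spermatid library lay below every secondary spermatocyte library for these 4 genes, which held for 6.30% of all genes, and 1.11% had every spermatid library higher. *Piwil1* was at 10.6, 7.97 and 17.8 RPKM in the spermatids of WT mice 178, 351 and 648 and at 12.7 and 7.80 RPKM in those of KO mice 286 and 544, a difference of -2.20 ± 0.55 (adjusted p = 0.073). *Tdrd5* had 5.55, 4.57 and 12 RPKM in the WT and 11.9 and 2.97 RPKM in the KO spermatids, a difference of -2.35 ± 0.54 (adjusted p = 0.059). *Piwil2* ranged from 2.16 to 4.53 RPKM (difference -1.58 ± 0.50, adjusted p = 0.13) and *Tdrd1* from 17.6 to 50.3 RPKM (difference -1.66 ± 0.58, adjusted p = 0.16). Each of the 4 genes was lower in 4 of 4 mice, but by unequal amounts. *Piwil1* changed by -2.98 and -3.95 in mice 178 and 544 and by -0.66 and -0.75 in mice 648 and 286, whose spermatids were low in *Prm1*. *Tdrd1* changed by -2.32 and -3.65 in the first pair and by -0.25 and -0.19 in the second. The 6 spermatocyte marker genes summed to 964 and 603 RPKM in the spermatids of mice 648 and 286 and to 56.5 to 164 RPKM in the other 3 spermatid libraries. Without mice 648 and 286 the differences were -3.23 for *Piwil1*, -2.32 for *Piwil2*, -2.72 for *Tdrd1* and -3.36 for *Tdrd5* (adjusted p = 0.0738, 0.11, 0.129 and 0.0781, limma). Somatic markers were lower in spermatids too: Leydig genes summed to 15.1 to 75.3 RPKM in secondary spermatocytes and 2.13 to 12.1 RPKM in spermatids, macrophage genes to 7.61 to 16.7 and 2.71 to 5.45 RPKM, and Sertoli genes to 14.9 to 110 and 3.85 to 42.2 RPKM. The part of these markers was not tested. With the mouse as a block all 4 were called lower (adjusted p = 0.0094 to 0.049), where 9.89% of genes were called lower and 0.509% higher. *Tdrd5* was also called without the primary spermatocyte library of mouse 613 (adjusted p = 0.031) or without the spermatids of WT 648 (adjusted p = 0.045) or KO 286 (adjusted p = 0.030), the libraries low in *Prm1*.

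The other members did not pass the test in this step. *Tdrd6* measured 312, 266 and 237 RPKM in the spermatids of WT mice 178, 351 and 648 and 341 and 205 RPKM in those of KO mice 286 and 544, a difference of -0.23 ± 0.46. *Mael* ranged from 214 to 429 RPKM and *Ddx4* from 169 to 426 RPKM, with differences of 0.24 ± 0.37 and 0.23 ± 0.39. *Tdrd9* ranged from 13.0 to 22.8 RPKM, with a difference of -0.43 ± 0.35. The adjusted p of these 4 genes ran from 0.539 to 0.832 (limma). *Asz1*, a scaffold on the outer mitochondrial membrane, scattered from 5.55 to 67.1 RPKM in spermatids, the highest being KO 286, with a difference of -0.30 ± 0.76. *Piwil4* was at or under 0.45 RPKM in the 5 spermatid libraries.

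Compared per length on the longest coding transcript of each gene, which avoids counting shared reads more than once, the order of the members changed along the series. In spermatogonia *Mael* (median 109 RPKM) and *Ddx4* (73.2) led, the medians of *Tdrd1*, *Piwil1*, *Piwil2*, *Asz1* and *Tdrd9* lay between 20.2 and 27.6 RPKM with overlapping libraries from each to the next, and *Tdrd5* (13.5), *Tdrd6* (6.93) and *Piwil4* (0.84) came last. In primary spermatocytes *Piwil1* (155 RPKM) stood between *Mael* (273) and *Ddx4* (138), with overlapping ranges of *Piwil1* and *Ddx4*. In spermatids *Mael* (321 RPKM), *Ddx4* (146) and *Tdrd6* (50.4) were followed by *Tdrd9* (13.9) and *Piwil1* (10.6), and *Tdrd1*, *Asz1*, *Piwil2* and *Tdrd5* had medians of 2.19 to 5.82 RPKM. *Tdrd6* thus went from the ninth to the third place, and *Tdrd5* from the sixth place in primary spermatocytes to the ninth.

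The contrast of pachytene and prepachytene members was computed per library as the mean log2(RPKM + 0.1) of the first group minus that of the second. It was 0.13 (WT 178), -0.99 (WT 648), 0.15 (KO 286) and 2.07 (KO 544) in spermatogonia, the last again being the library high in *Prm1*. In primary spermatocytes it was 3.31 and 3.08 in WT mice 178 and 648 and 2.23, 2.81, 2.71 and 2.03 in KO mice 544, 550, 613 and 614. The mean of the pachytene members was 4.24 to 6.61 in spermatogonia and 7.05 to 8.002 in primary spermatocytes, without overlap. That of the prepachytene members overlapped (4.53 to 5.45 and 4.34 to 5.71), but it joins members that went opposite ways. *Piwil4*, at low values throughout, differed by -3.43 and *Asz1* by -1.28, and *Tdrd1*, *Ddx4*, *Tdrd9* and *Piwil2* by 1.17, 0.84, 0.83 and 0.42. The contrast without *Piwil4* was not computed. Averaged over genotypes the contrast was 2.48 higher in primary spermatocytes than in spermatogonia, 0.15 lower in secondary than in primary spermatocytes and 0.52 lower in spermatids than in secondary spermatocytes. It stayed at 1.88 to 3.16 in secondary spermatocytes and 1.72 to 2.35 in spermatids. The middle and the last step were both smaller than the spread of libraries of 1 group (SD 0.63). The middle step changed sign to 0.08 when *Tdrd5* and *Mael* were counted as prepachytene. The first step ranged from 1.996 to 2.96 when single libraries were left out and was 2.31 on the longest coding transcripts alone.

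**Figure D3:**
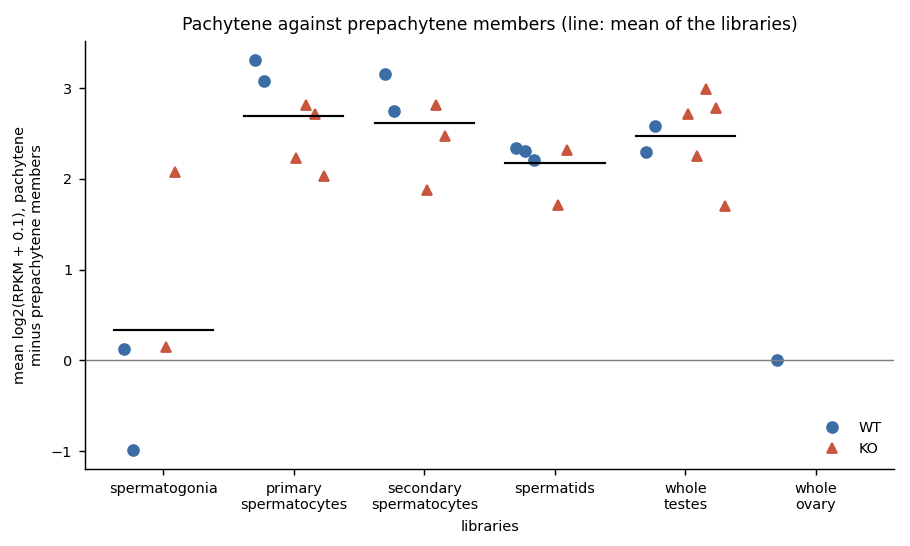
Mean log2(RPKM + 0.1) of *Piwil1*, *Tdrd5*, *Tdrd6* and *Mael* minus that of the other 6 genes in each of the 28 libraries (circles, WT; triangles, KO; line, mean of the fraction's libraries). Spermatogonia lie at -0.99 to 2.07, the highest being KO 544, the other testis libraries between 1.70 and 3.31, and the ovary at 0.0042.

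Over the 20 sorted libraries the members did not follow a single course. The 45 pairs ranged from r = -0.74 (*Piwil4* with *Tdrd6*) to r = 0.96 (*Tdrd1* with *Tdrd5*), a pair taken from both groups. Pearson's r had a median of 0.32 over the 6 pachytene pairs, 0.19 over the 15 prepachytene pairs and 0.15 over the 24 pairs across groups. These libraries share mice and fractions, and the values are descriptions. Outside the members, and among 13273 genes with a mean of at least 1 RPKM, the patterns closest to *Piwil1* were those of *Chst1*, *Cd177* and *M5C1000I18Rik* (r = 0.97, 0.97 and 0.96). Those closest to *Piwil2* were *Usp40*, *Rttn* and *Zfp24* (r = 0.97 each), and those closest to *Piwil4* were *Foxf1*, *Susd4* and *Depdc7* (r = 0.94, 0.92 and 0.91). The library with the highest *Piwil4*, the spermatogonia of WT 648, also held the most spermatogonial marker signal of the sorted libraries (442 RPKM). The same library held the most Leydig (322 RPKM), peritubular and stromal (193 RPKM), macrophage (74.6 RPKM) and Sertoli (125 RPKM) marker signal. Spermatogonial markers summed to 363, 198 and 75.2 RPKM in the spermatogonia of KO 286, WT 178 and KO 544. The part of these cells in the *Piwil4* values was not tested.

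A list of 18 other piRNA pathway genes was read in the same fits, of which 17 were tested in sorted cells. From spermatogonia to primary spermatocytes 6 were called higher (9.53% of all genes), 2 lower (22.0% of all genes), and 9 did not pass. *Pld6*, the mitochondrial nuclease that cuts piRNA precursors, rose by 2.19 ± 0.52 (adjusted p = 0.0043), and *Henmt1*, which methylates piRNA ends, by 1.66 ± 0.40 (adjusted p = 0.00478). *Mybl1* measured 67.0, 18.2, 51.6 and 51.4 RPKM in the spermatogonia of WT 178, WT 648, KO 286 and KO 544. It measured 144 and 208 RPKM in the primary spermatocytes of WT mice 178 and 648 and 133, 165, 62.8 and 77.8 RPKM in those of KO mice 544, 550, 613 and 614. Those of mouse 613 overlapped with spermatogonia. *Mybl1* rose by 1.64 ± 0.58 (adjusted p = 0.038) and in 3 of 3 mice. *Tex15*, whose protein acts with PIWIL4 in silencing transposons, fell by 3.77 ± 0.63 (adjusted p = 0.000654), and *Fkbp6*, a co-chaperone of piRNA loading, by 1.44 ± 0.52 (adjusted p = 0.044). None of the 17 was called in the next 2 steps, with 11 and 9 of them at an unadjusted p under 0.05, as had 21.7% and 17.6% of all genes. With the mouse as a block, 8 were called lower and 1 higher from primary to secondary spermatocytes (4.86% and 15.0% of all genes) and 7 lower from secondary spermatocytes to spermatids (9.89% of all genes).

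Whole testes and sorted cells of KO mice were compared with those of WT mice, since the study asked what loss of *Csmd1* does to the testis. No member was called in either comparison by limma. In whole testes 0 of 22776 genes were called (2493 had an unadjusted p under 0.05). The difference was above 0 for 9 of the 10 members, with a median difference of 0.87 beside 0.39 over all genes. The largest difference was that of *Piwil2*. It measured 8.95 and 13.2 RPKM in the testes of WT mice 178 and 648 and 19.1, 29.1, 21.6, 30.7 and 50.9 RPKM in those of KO mice 214, 269, 273, 286 and 308. The KO testes lay above both WT testes, as they did for 15.9% of all genes, and the difference was 1.38 ± 0.48 (adjusted p = 0.35). *Tdrd9* (14.8 and 15.7 RPKM in WT, 21.8 to 44.2 RPKM in KO) was likewise without overlap, with a difference of 1.08 ± 0.43 (adjusted p = 0.41). *Piwil4* was lowest, at 0.58 and 0.38 RPKM in WT and 0.17, 0.41, 0, 0.04 and 1.17 RPKM in KO, in the same order of mice, and differed by -0.93 ± 0.97 (adjusted p = 0.80). After quantile normalization, which brought the median of all genes to 0.05, the *Piwil2* difference was 0.72 and that of *Tdrd9* 0.40. The WT testis of mouse 178 was at the bottom of *Piwil1*, *Piwil2*, *Tdrd1*, *Tdrd5*, *Tdrd6*, *Tdrd9*, *Mael*, *Ddx4* and *Asz1*, and the KO testis of mouse 308 was at the top of 6 of them. *Prm1* was at 603 RPKM in the first and 0.44 RPKM in the second, and the Sertoli cell genes summed to 62.4 and 390 RPKM. The part of cell composition in these values was not tested.

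In the sorted cells, averaged over the 4 stages, 2 of 19049 genes were called (0.0105%), none of them a member, and no member had an unadjusted p under 0.05. *Tdrd6* had the largest difference, 0.60 ± 0.33 (adjusted p = 0.60), and *Asz1* the lowest, -0.41 ± 0.55 (adjusted p = 0.80). The 20 libraries come from 8 mice and this fit counts them as independent, so its SEs may be too small. With the mouse as a block 0 genes were called for genotype, and those with an unadjusted p under 0.05 went from 1630 to 423. No member was called by the F test for interaction, which asks whether the difference between genotypes varies with stage. It called 0 genes in all (486 had an unadjusted p under 0.05). *Tdrd6* was the member with an unadjusted p under 0.05 there (F = 4.52, adjusted p = 1, limma), and its KO 544 spermatogonia library is the one high in *Prm1*. Groups of 2 to 4 libraries limit these tests. The absence of a call does not show that KO and WT levels, or their changes between stages, were alike. With the mouse as a block the F test for interaction also called 0 genes, and 1680 had an unadjusted p under 0.05. Sorted libraries also differed in how many transcripts had no value, unevenly between genotypes. These numbered 865 in WT 178, WT 351 and KO 286, 1411 in KO 544 and KO 550, 2828 in WT 648 and KO 614, and 12787 in KO 613. Their part in the genotype differences was not tested.

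In the ovary, a tissue whose germ cells make up a small share of the cells, *Tdrd5* stood apart from the other members. Its summed level was 70.9 RPKM, between the WT testes of mice 178 (24.9 RPKM) and 648 (130 RPKM), while the other 9 genes were at 0.01 to 5.15 RPKM and below every testis library except for *Piwil4* (0.72 RPKM). *Tdrd1* followed with 5.15 RPKM and *Asz1* with 3.11 RPKM. *Piwil1*, *Piwil2*, *Mael* and *Ddx4* were at 0.11, 0.25, 0.54 and 0.65 RPKM. The oocyte gene *Zp3* measured 43.3 RPKM in the same library. On the longest coding transcript the *Tdrd5* value rested on about 5780 reads, that of *Piwil1* on 23, and that of *Tdrd6* on 2.

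The *Tdrd5* transcripts differed between ovary and testis. The coding transcripts of 3759 and 3210 bases (18 exons each, chromosome 1, 156255296 to 156303664 and 156255298 to 156303348, minus strand) were at 29.1 and 34.0 RPKM in the ovary, and the 618-base transcript of 5 exons at the 5′ end of the gene (156294468 to 156303606) was at 1.17 RPKM, about 38 reads. The last was 0.040 of the longest in the ovary. In the 26 testis libraries without mouse 613 this ratio ran from 0.21 to 0.78 with a median of 0.51. The ovary therefore lay below each of those libraries. Reads of the 5′ end count toward both transcripts, and 176 exon bases are shared with *4930518J20Rik* on the other strand, which cannot be told apart where strand was not recorded. For *Piwil4*, 137 exon bases are shared with *Gm10706* in the same way. A single ovary gives no replicate.

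*Tdrd6* transcripts set 1 mouse apart. A processed transcript of 468 bases and 3 exons near the 3′ end (chromosome 17, 43615559 to 43620485, minus strand) is counted beside the coding transcripts of 7059 and 6563 bases, and its value is part of the sum. Its ratio to the longest coding transcript was 0.65 to 0.82 in the 5 libraries of WT mouse 648, whether spermatogonia, spermatocytes, spermatids or whole testis. In the other 22 testis libraries it was 1.85 to 4.19, with a median of 3.25, and the groups did not overlap. Other WT libraries, those of mice 178 and 351, were at 2.03 to 4.19. On the longest coding transcript alone *Tdrd6* was 76.7 RPKM in the primary spermatocytes of WT 648, next to 72.8 RPKM in WT 178. Its rise from spermatogonia to primary spermatocytes was called on the longest transcript alone as well.

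**Figure D4:**
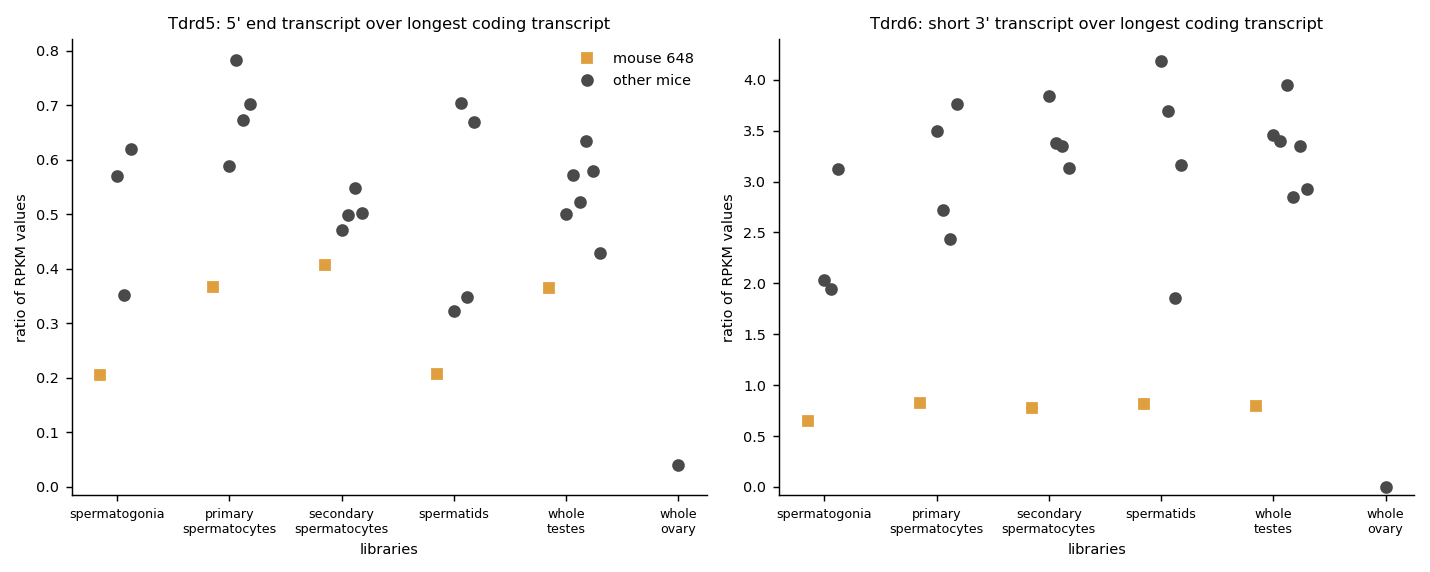
Ratio of RPKM values of a short transcript to the longest coding transcript of the same gene, for *Tdrd5* (left) and *Tdrd6* (right), in each library by fraction (squares, mouse 648; circles, other mice; mouse 613 left out). The ovary lies below the testis libraries for *Tdrd5*, at 0.040, and the 5 libraries of mouse 648 lie together at 0.65 to 0.82 for *Tdrd6*.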

How the data were processed

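Polyadenylated RNA of 28 libraries was analysed: 20 sorted germ cell fractions, 7 whole testes and 1 ovary. The authors aligned reads with TopHat2, and the deposited table gives an RPKM value for each Ensembl transcript. Values were joined to genes by transcript identifier with GENCODE M21 annotation (GRCm38), which matched 95.7% of 94480 transcripts, and summed per gene. Reads shared by transcripts of a gene are counted in each of them, so levels of different genes were compared on the longest coding transcript only. Depth was recovered for 27 libraries from the steps of low values (93.8% to 95.7% of values whole within 0.06 reads) and was 23.8 to 61.7 M reads. Mouse 613 gave 12.7%, and its depth is unknown.

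Genes with a mean of at least 0.1 RPKM were tested as log2(RPKM + 0.1), which understates changes of low genes, with limma 3.58.1 in R 4.3.3 and Benjamini-Hochberg adjustment over all genes (threshold 0.05). The 20 sorted libraries were fitted with a mean per genotype and stage, and stage differences are averages over genotypes. Whole testes were fitted separately. Fractions of 1 mouse share an animal: over 22 pairs of libraries sharing an animal the median correlation of residuals was 0.48 (19 pairs over 0.1), and over 151 pairs from different animals it was -0.046, so a fit with the mouse as a block is given where it changes a call. The alternatives were other pseudocounts and filters, quantile normalization, the longest transcript, WT libraries alone, the block and leaving out libraries or mice. Leaving out mice 648 and 286 together, combining longest transcript with quantile normalization, and the contrast of members on the longest coding transcripts were added after the data were seen. Fits were tested on simulated data. The 10 genes, the marker and pathway lists and the groups of members were chosen with earlier results of these data known. Named genes are the 10 members, *Mybl1*, the 2 pathway genes with the largest called difference in each direction of a stage comparison, and the 3 genes of at least 1 RPKM most correlated with each PIWI gene.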

Additional observations from a re-analysis of the deposited data

How the results depend on the processing

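The members called from spermatogonia to primary spermatocytes numbered 5, and were 2 without mouse 648, 2 without mice 648 and 286 and 8 with the mouse as a block (3 to 7 without single libraries). The genes called there numbered 6007, and were 2208 and 2420 without those mice (3459 to 7716 without single libraries). From primary to secondary spermatocytes 1 member and 580 genes were called. The members became 0 with a pseudocount of 1, with no filter, without mouse 648, without mice 648 and 286, in WT alone and with the longest transcript and quantile normalization, 2 with quantile normalization, 3 without mouse 613 or the KO 544 spermatogonia and 4 with the block (0 to 3 without single libraries). The genes became 233 with a pseudocount of 1, 42 without mouse 648, 3791 with the block, 1711 without mouse 613, 1499 without the KO 544 spermatogonia, 0 in WT alone, 1159 without mice 648 and 286 and 88 with the longest transcript and quantile normalization (0 to 1711 without single libraries). From secondary spermatocytes to spermatids 0 members and 103 genes were called. The members became 1 with a pseudocount of 0.01 or without mouse 613 and 4 with the block (0 to 1 without single libraries). The genes became 168 and 9 with pseudocounts of 0.01 and 1, 9 with quantile normalization, 25 with the longest transcript, 19 without mouse 648, 1981 with the block, 332 without mouse 613, and 0 in WT alone, without mice 648 and 286, or with the longest transcript and quantile normalization (0 to 364 without single libraries). For KO against WT in sorted cells, 2 genes became 1 with a pseudocount of 1, with a mean of at least 1 RPKM or without the KO 544 spermatogonia, 15 with no filter, 0 without mouse 648 or with the block, and 194 without mice 648 and 286 (1 to 516 without single libraries). In whole testes 0 genes became 1 with a pseudocount of 0.01, 54 with no filter and 159 without mouse 648 (0 to 159 without single libraries), and the interaction gave 21 with no filter (0 without any single library). No member was called for KO against WT under these settings (0 without any single library). Signs turned for *Piwil2* from spermatogonia to primary spermatocytes (-0.59 in WT alone), for *Piwil4* from primary to secondary spermatocytes (-0.30 with quantile normalization, -0.051 in WT alone, -0.38 with the longest transcript and quantile normalization, -0.076 to 0.64 without single libraries) and to spermatids (-0.043 with a pseudocount of 1, -0.089 with the longest transcript, -0.17 without mouse 648, -0.34 without mice 648 and 286, -0.41 to 0.45 without single libraries). They also turned in the last step for *Ddx4* (-0.095 without mice 648 and 286, -0.10 to 0.57 without single libraries) and *Asz1* (0.037 with the longest transcript and quantile normalization, -1.20 to 0.59 without single libraries), and for *Asz1* between genotypes in sorted cells (0.18 without mouse 648, -0.86 to 0.035 without single libraries). The contrast of pachytene and prepachytene members turned from primary to secondary spermatocytes (0.078 with *Tdrd5* and *Mael* moved). The block changed no call on members other than those given above, and the causes were not tested. Depth limits the ovary values of 8 genes, which rest on 2 to 68 estimated reads of the longest coding transcript (*Tdrd1* on 340).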
